A study of Mus musculus with 9 samples.

Results

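Gene expression in RAW264.7 cells was examined for 10 genes of the inflammasome, pyroptosis and necroptosis pathways, Nlrp3, Pycard, Casp1, Casp4, Gsdmd, Ninj1, Casp8, Ripk1, Ripk3 and Mlkl. They were found by symbol, through GENCODE M21 on GRCm38, among the 28137 Ensembl identifiers of the deposited gene table, and each of the 10 had a single row. Values are FPKM, fragments scaled to exon length and library size, so that levels can be set side by side between genes. RAW264.7 is a mouse monocyte and macrophage leukemia line. The 9 RNA-seq libraries were 3 from cells given a negative control siRNA (NC), 3 from cells given SFRP2 siRNA and 3 from cells given RAB6A siRNA. SFRP2 is a secreted modulator of Wnt signaling, and RAB6A is a small GTPase of Golgi transport. The study asked how loss of SFRP2 changes inflammatory macrophages.

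The 3 groups shared all other treatment given in the labels. Cells were transfected with 60 nM siRNA for 6 h, kept in complete medium for 12 h and then given 100 ng/ml LPS, and RNA was taken after 24 h of polarization. No library without LPS or without siRNA was analysed here. The library titles end in 6H, which may refer to the transfection time or to another interval. The labels name LPS alone, while the methods of the study also name IFN-γ and give another siRNA dose and interval. Neither source says whether the SFRP2 libraries numbered 1 to 3 received different siRNAs, and neither says for these libraries whether those of a group came from separate cultures, although the methods speak of independent experiments for the study in general. The p-values therefore measure only the spread between these libraries, which may be technical.

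Inflammasomes are platforms in which a sensor such as NLRP3 binds the adaptor ASC, the product of Pycard, and activates caspase-1. Caspase-1, or caspase-11 from Casp4 after it binds LPS in the cytosol, cuts gasdermin D, whose pores release IL-1β and start pyroptosis, and NINJ1 then ruptures the plasma membrane. In necroptosis, RIPK1 and RIPK3 activate the pore-forming protein MLKL when caspase-8 is blocked. LPS is the classic priming signal that raises Nlrp3 in macrophages, and RAW264.7 cells are known for lacking ASC.

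The windows upstream of the start sites of Nlrp3 and Ripk1 are shown because these genes had the largest differences of the 9 genes tested, and that of Casp4 for its match to a kappa B motif. They were taken from RefSeq (GRCm38.p6, plus strand), whose promoter table held 9 of the 10 genes. Annotated exons were cut off. Capitals mark matches to a kappa B motif (GGGA and CC with 4 bases between them) or a PU.1 motif (GAGGAA), read on both strands. Nlrp3 has an outer start site at chr11:59541569, with its window at chr11:59541319-59541567. Its inner start site, within the gene, is at chr11:59542686, with its window at chr11:59542436-59542685. The Ripk1 window is chr13:34002113-34002362 and the Casp4 window is chr9:5308599-5308827, for a start site at chr9:5308849.
Nlrp3, outer start site: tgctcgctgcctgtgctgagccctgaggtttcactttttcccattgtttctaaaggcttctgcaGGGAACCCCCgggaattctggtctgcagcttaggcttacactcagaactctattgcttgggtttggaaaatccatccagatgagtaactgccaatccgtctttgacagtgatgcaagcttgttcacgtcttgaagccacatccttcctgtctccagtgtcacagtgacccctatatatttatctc
Nlrp3, inner start site: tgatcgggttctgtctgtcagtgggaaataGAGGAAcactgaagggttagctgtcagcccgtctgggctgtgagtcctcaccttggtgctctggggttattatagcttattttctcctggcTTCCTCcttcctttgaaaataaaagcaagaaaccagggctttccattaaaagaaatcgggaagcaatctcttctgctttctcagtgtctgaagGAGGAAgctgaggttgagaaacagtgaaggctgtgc
Ripk1, outer start site: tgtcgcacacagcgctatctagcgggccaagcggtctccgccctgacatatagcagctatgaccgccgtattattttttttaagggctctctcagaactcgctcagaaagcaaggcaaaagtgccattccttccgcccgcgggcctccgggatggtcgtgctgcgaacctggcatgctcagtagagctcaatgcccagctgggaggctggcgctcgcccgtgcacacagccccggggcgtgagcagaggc
Casp4: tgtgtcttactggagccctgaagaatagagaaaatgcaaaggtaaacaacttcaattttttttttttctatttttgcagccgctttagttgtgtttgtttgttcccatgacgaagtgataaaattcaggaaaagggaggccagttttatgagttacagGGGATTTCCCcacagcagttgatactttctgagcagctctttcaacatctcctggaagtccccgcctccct

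The outer Nlrp3 window holds a kappa B match at position -186 from the start, and the inner window holds 3 PU.1 matches, at positions -220, -129 and -36. The Casp4 window holds the kappa B match GGGATTTCCC at position -92. The Ripk1 window shown holds no match to these motifs, while the window of its inner start site, which lies over an exon and is not shown, holds 2 PU.1 matches. The matches shown do not overlap each other. An interferon response motif (GAAA and GAAA with 2 bases between them) was in the window of none of the 9 genes, and an E-box (CACGTG) was in those of Casp1 and Ripk3. Of 32851 windows of the same length in the table, 17.6% held the kappa B motif, 23.3% the PU.1 motif, 2.98% the interferon response motif and 6.02% the E-box. Over the 12 windows of the 9 genes, the kappa B motif was in 3 and the PU.1 motif in 4. These windows belong to 2 and 4 genes. A match is a run of letters and no evidence of binding.

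The targeted genes were checked first. Sfrp2 had 2 to 4 reads in each of the 9 libraries, so its knockdown could not be judged from these data. Rab6a was at 24.3, 27.3 and 25.5 FPKM in the NC libraries, 26.6, 28.6 and 25.8 FPKM in the SFRP2 siRNA libraries and 21.2, 20.7 and 20.4 FPKM in the RAB6A siRNA libraries. All RAB6A siRNA libraries were below all others (exact two-sided permutation test against NC, p = 0.1, the smallest that 3 against 3 libraries allow). The mean was 20.7 FPKM in RAB6A siRNA and 25.7 FPKM in NC. The RAB6A siRNA libraries did not overlap with NC for 77.4% of all genes tested, nor with SFRP2 siRNA for 77%. A gap between groups was thus common and says little about the target. The libraries held 32297214 to 46544869 reads over named genes. All 10 macrophage markers, such as Cd68 and Cd14, were detected, with a summed level of 4064 to 5256 FPKM. The 18 measured markers of T cells, B cells, fibroblasts, endothelium and epithelium summed to 2.83 to 5.41 FPKM, and none was above 1.32 FPKM in a library.

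In NC cells, Nlrp3, Mlkl and Ninj1 had the highest levels of these genes. Nlrp3 led with a mean of 65.9 ± 1.47 FPKM (SD, n = 3), followed by Mlkl at 61.1 ± 1.59 FPKM and Ninj1 at 47.4 ± 4.07 FPKM. Casp4 was at 31.5 ± 0.611 FPKM, Gsdmd at 29.0 ± 0.54 FPKM and Casp8 at 25 ± 1.33 FPKM. Casp1 was at 23.1 ± 1.01 FPKM and Ripk3 at 21.8 ± 0.433 FPKM, and this was the only neighboring pair whose ranges overlapped. Ripk1 was at 10.9 ± 0.655 FPKM, below Ripk3 in every library. Pycard was last.

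Pycard transcripts were near the limit of detection in every group. Pycard, the gene of ASC, was listed at 0.126, 0.0670 and 0.0743 FPKM in the NC libraries, at 0.0779, 0.203 and 0.136 FPKM in the SFRP2 siRNA libraries and at 0, 0.0974 and 0.0964 FPKM in the RAB6A siRNA libraries. These are 12 to 20 reads in NC, 12 to 30 reads in SFRP2 siRNA and 0 to 14 reads in RAB6A siRNA. The groups overlapped, and 3 reads would be 0.0167 to 0.0241 FPKM. Pycard did not reach the mean of 0.5 FPKM required for the fit, so that 9 of the 10 genes were tested. Its exact permutation p was 0.2 for SFRP2 siRNA against NC and 0.7 for RAB6A siRNA against NC. Of its 3800 exonic bases, 485 are shared with Gm45205 on the opposite strand, and the sources used here do not state whether counting used strand.

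**Figure D1:**
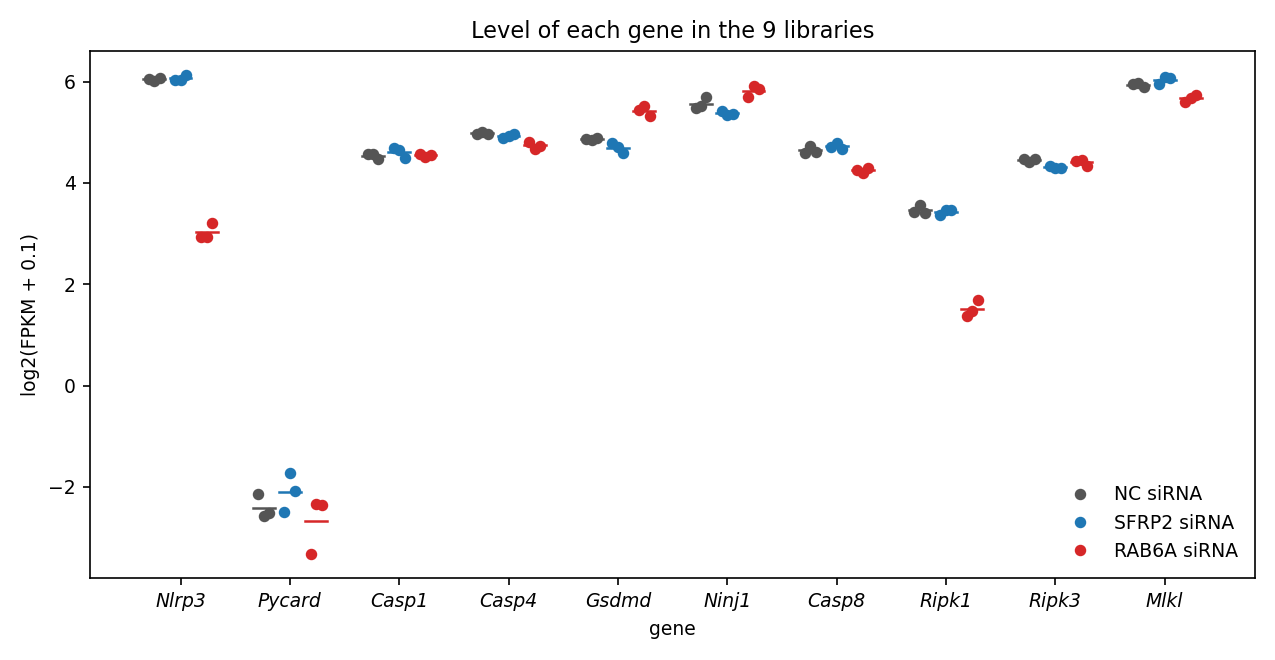
Level of each of the 10 genes as log2(FPKM + 0.1) on the vertical axis in the 9 libraries, in gray for NC, blue for SFRP2 siRNA and red for RAB6A siRNA. Points are libraries and lines are means of 3. Nlrp3 and Ripk1 were far lower in the RAB6A siRNA libraries, and Pycard was far below the other genes in all groups.

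The plot of levels by library shows that the SFRP2 siRNA libraries lay close to the NC libraries for all genes but Pycard, whose values near 0 scattered in each group. The RAB6A siRNA libraries departed most for Nlrp3 and Ripk1.

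SFRP2 siRNA was compared with NC to ask whether the siRNA changed cell death genes in LPS-treated cells. None of the 9 genes tested passed an adjusted p of 0.05 (limma, Benjamini-Hochberg adjustment over all 12017 genes tested). The background was 0% of all genes called. At an unadjusted p under 0.05, Gsdmd, Ninj1 and Ripk3 passed, 3 of 9, against 18.5% of all genes. The median log2 fold change of the 9 genes was -0.04, and that of all genes tested was -0.01. The voom fit of recovered reads called 50 genes of the whole table and none of the 8 that it could test, which left out Casp1.

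Gsdmd, the pore former, was at 28.9, 28.6 and 29.6 FPKM in NC and at 27.6, 25.9 and 23.9 FPKM in SFRP2 siRNA. Every SFRP2 siRNA library was below every NC library, and the log2 fold change was -0.17 ± 0.06 (SE; limma adjusted p = 0.217). Ninj1, the mediator of membrane rupture, was at 44.2, 46.0 and 52.0 FPKM in NC and at 42.4, 40.4 and 41.1 FPKM in SFRP2 siRNA. The log2 fold change was -0.20 ± 0.07 (limma adjusted p = 0.209). Ripk3, the kinase that phosphorylates MLKL, was at 22.1, 21.3 and 22.0 FPKM in NC and at 20.2, 19.6 and 19.6 FPKM in SFRP2 siRNA. The log2 fold change was -0.14 ± 0.04 (limma adjusted p = 0.197). The groups did not overlap for these 3 genes, as for 24.7% of all genes tested.

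These 3 genes have the highest GC content of the 9, at 54.4% for Gsdmd, 59.4% for Ninj1 and 54.2% for Ripk3. Across the 11903 genes with a value, log2 fold changes of SFRP2 siRNA against NC were lower at higher GC content (Spearman rho = -0.482, a description across genes, which share the libraries). After correction for GC content and length, the log2 fold changes were -0.07 for Gsdmd, -0.06 for Ninj1 and -0.03 for Ripk3, so that each moved toward 0. Casp4, with the lowest GC content (38.1%), went from -0.05 to -0.21 (limma adjusted p = 0.328). Causes of the relation with GC content were not tested.

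**Figure D2:**
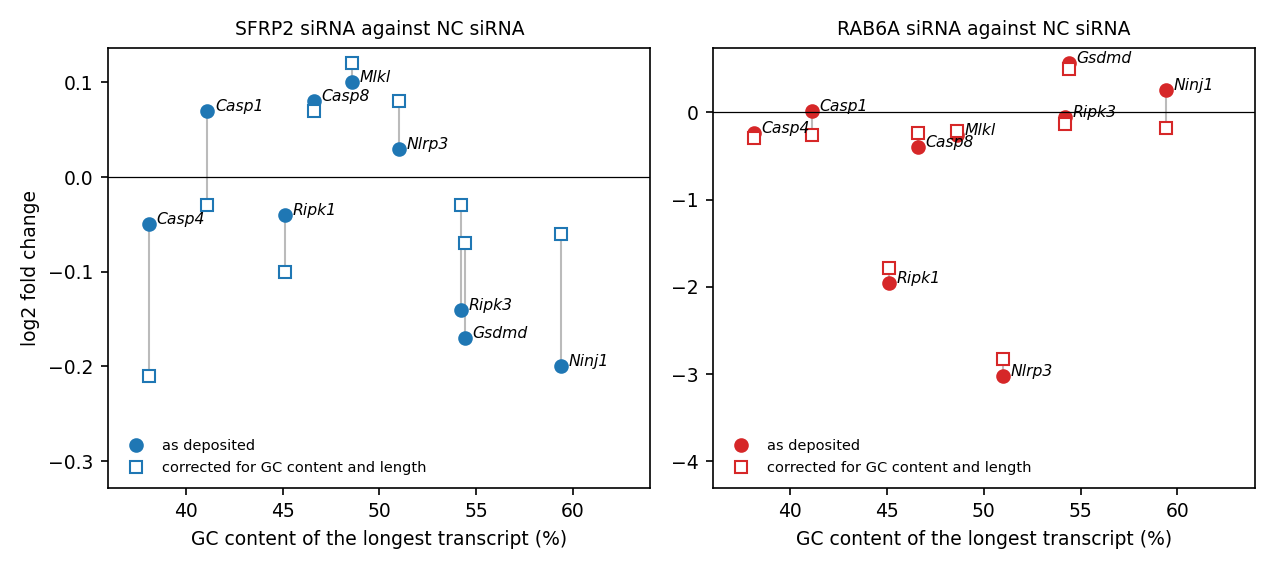
Log2 fold change on the vertical axis against the GC content (%) of the longest transcript for the 9 genes tested, for SFRP2 siRNA against NC (left, blue) and RAB6A siRNA against NC (right, red). The vertical scales differ. Circles are values as deposited and squares are values corrected for GC content and length. On the left, Gsdmd, Ripk3 and Ninj1 moved toward 0 after the correction, and on the right Ninj1 and Casp1 moved below 0.

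The plot of fold change against GC content shows that, in SFRP2 siRNA against NC, the 3 genes of highest GC content moved up after the correction, while Casp1 and Casp4, those of lowest GC content, moved down. The correction removes the trend over all genes, so these directions largely follow from it and are no result about these genes. The other 6 genes had smaller differences from NC. Nlrp3 was at 65.9, 64.4 and 67.4 FPKM in NC and at 65.5, 65.6 and 70.2 FPKM in SFRP2 siRNA. Its log2 fold change was 0.03 with a 95% interval of -0.08 to 0.14 (limma adjusted p = 0.794). Mlkl had a log2 fold change of 0.10 (95% interval -0.03 to 0.23), Casp8 of 0.08 (-0.06 to 0.22), Casp1 of 0.07 (-0.08 to 0.23), Casp4 of -0.05 (-0.16 to 0.05) and Ripk1 of -0.04 (-0.18 to 0.11). The intervals of these 6 genes included 0, and the groups overlapped for each.

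RAB6A siRNA was compared with NC in the same way. Levels of Nlrp3 and Ripk1 fell several-fold, Casp8, Mlkl and Casp4 fell by less than 1 on the log2 scale, and Gsdmd rose. Ninj1 also passed the test as higher, but this call depended on the processing. Of the 9 genes tested, 2 were called higher and 5 lower at a limma adjusted p under 0.05, beside 74.1% of all 12712 genes tested, 37.6% higher and 36.5% lower. A share of 7 in 9 is thus near that of all genes. With an absolute log2 fold change over 1 as a further criterion (DEGs), 2 of the 9 passed, both lower, against 30.1% of all genes. Lower DEGs were 12.8% of all genes tested. At an unadjusted p under 0.05, 7 of the 9 passed, against 76.1% of all genes. The groups did not overlap for 6 of the 9 genes, against 77.4% of all genes. The median log2 fold change was -0.24 for the 9 genes and 0.03 for all genes.

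Nlrp3 was at 7.51, 7.54 and 9.19 FPKM in the RAB6A siRNA libraries, against 64.4 to 67.4 FPKM in NC. The highest RAB6A siRNA library was far below the lowest NC library. Nlrp3 was 8.11-fold lower, a log2 fold change of -3.02 ± 0.09 (SE; 95% interval -3.22 to -2.82; limma adjusted p = 7.27e-07). In reads, it had 11131 to 12324 per NC library and 1107 to 1221 per RAB6A siRNA library. Of all 12712 genes tested, 364 (2.86%) had a larger absolute log2 fold change. Nlrp3 (ENSMUSG00000032691) lies at chr11:59541568-59566956 on GRCm38, and none of its exons overlaps another gene.

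Ripk1, the kinase that joins death receptor signaling to survival, apoptosis or necroptosis, was at 10.6, 11.7 and 10.5 FPKM in NC, 10.2, 10.9 and 10.9 FPKM in SFRP2 siRNA and 2.49, 2.68 and 3.11 FPKM in RAB6A siRNA. The RAB6A siRNA libraries did not overlap with either other group. Ripk1 was 3.87-fold lower than in NC, a log2 fold change of -1.95 ± 0.10 (SE; 95% interval -2.18 to -1.73; limma adjusted p = 3.03e-06). A larger absolute log2 fold change was found for 1191 genes (9.37%). Ripk1 (ENSMUSG00000021408) lies at chr13:34002363-34037147. Of its 8344 exonic bases, 241 are shared with Serpinb6a on the opposite strand and 511 with the pseudogene Gm17084 on the same strand, so that reads there could belong to either gene.

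Casp8, the initiator caspase that restrains necroptosis, was at 24.1, 26.5 and 24.3 FPKM in NC and 18.9, 18.3 and 19.5 FPKM in RAB6A siRNA. All RAB6A siRNA libraries were lower, with a log2 fold change of -0.40 ± 0.06 (SE; limma adjusted p = 0.000619). Corrected for GC content and length it was -0.24 (limma adjusted p = 0.00629). Mlkl was at 61.5, 62.5 and 59.4 FPKM in NC and 48.4, 51.3 and 52.9 FPKM in RAB6A siRNA, with a log2 fold change of -0.26 ± 0.06 (limma adjusted p = 0.00341). Ripk3 was at 21.4, 21.9 and 20.1 FPKM in RAB6A siRNA and overlapped with NC. Its log2 fold change was -0.05 with a 95% interval of -0.18 to 0.08 (limma adjusted p = 0.468). The 2 kinases thus differed in these libraries: the ratio of Ripk1 to Ripk3 within a library was 0.478 to 0.548 in NC, 0.507 to 0.556 in SFRP2 siRNA and 0.116 to 0.155 in RAB6A siRNA. With quantile normalization, the log2 fold change of Mlkl was -0.14 and its adjusted p 0.0514 (limma), and Ripk3 turned to 0.08. After correction for GC content and length, Ripk3 was at -0.13 (limma adjusted p = 0.0336).

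**Figure D3:**
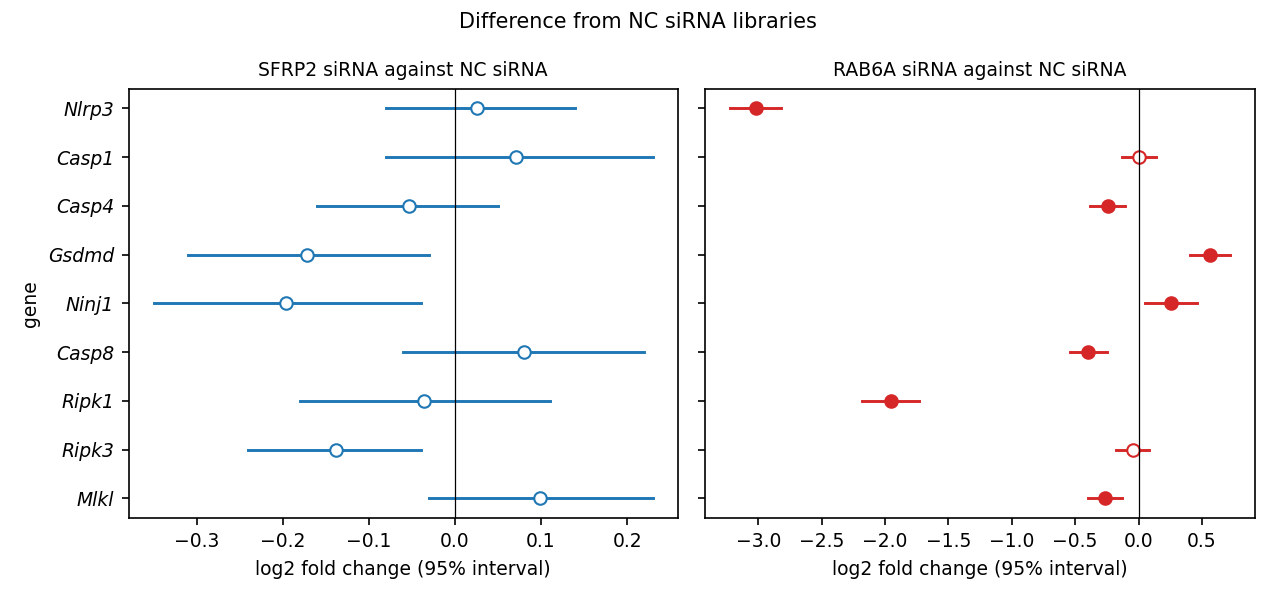
Log2 fold changes on the horizontal axis with 95% intervals for the 9 genes tested, SFRP2 siRNA against NC on the left and RAB6A siRNA against NC on the right, on different horizontal scales. Filled points had a limma adjusted p under 0.05. No gene was called on the left, and 7 were called on the right, from -3.02 for Nlrp3 to 0.56 for Gsdmd.

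The plot of fold changes with their intervals sets Nlrp3 and Ripk1 apart from the other 7 genes, which all lay between -0.40 and 0.56 in the comparison of RAB6A siRNA with NC. The caspases that cut gasdermin D and gasdermin D itself did not move together. Gsdmd was at 43.4, 45.9 and 39.7 FPKM in RAB6A siRNA, above all NC and SFRP2 siRNA libraries, and rose 1.48-fold over NC (log2 fold change 0.56 ± 0.07 SE; limma adjusted p = 0.00015). Casp4 was at 31.1, 32.2 and 31.2 FPKM in NC and 28, 25.5 and 26.4 FPKM in RAB6A siRNA. All RAB6A siRNA libraries were lower, with a log2 fold change of -0.24 ± 0.06 (limma adjusted p = 0.0053), and with quantile normalization the value was -0.10 (limma adjusted p = 0.162).

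Casp1 was at 23.7, 23.7 and 22.0 FPKM in NC, 25.8, 24.9 and 22.4 FPKM in SFRP2 siRNA and 23.6, 22.6 and 23.4 FPKM in RAB6A siRNA. The 3 groups overlapped, and the log2 fold change of RAB6A siRNA against NC was 0.01 with a 95% interval of -0.13 to 0.14 (limma adjusted p = 0.932). Corrected for GC content and length it was -0.26 (limma adjusted p = 0.00095). Casp1 ends 1562 bases before Casp4 on chromosome 9, on the same strand. The FPKM of Casp1 did not give whole reads with its exon length in GENCODE M21, so its number of reads is not known and its level relative to other genes rests on the authors' gene length.

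Ninj1 was at 51.5, 60.5 and 57.8 FPKM in RAB6A siRNA, and the lowest of these was below the highest NC library, at 52.0 FPKM. The log2 fold change was 0.25 ± 0.09 (SE; limma adjusted p = 0.028). The call was lost without NC replicate 1 (0.21), without NC replicate 2 (0.24), without RAB6A siRNA replicate 2 (0.21) and without RAB6A siRNA replicate 3 (0.24). It was also lost with no filter on low values and with median-of-ratios scaling (0.21), and after correction for GC content and length the sign turned, to -0.18 (limma adjusted p = 0.0897).

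The RAB6A siRNA and SFRP2 siRNA libraries were also compared directly. The limma fit called 7 of the 9 genes, beside 73.4% of all 12764 genes tested, with 2 higher and 5 lower (37.6% and 35.8% of all genes). Both DEGs were lower, as were 13.3% of all genes, and 7 of the 9 had an unadjusted p under 0.05, against 75.5% of all genes. The log2 fold changes were -3.04 for Nlrp3, -1.92 for Ripk1, -0.48 for Casp8, -0.36 for Mlkl, -0.19 for Casp4, 0.45 for Ninj1 and 0.73 for Gsdmd. Casp1 (-0.07, 95% interval -0.22 to 0.09) and Ripk3 (0.09, 95% interval -0.04 to 0.22) were not called. The groups did not overlap for 7 of the 9 genes, against 77% of all genes. The call of Casp4 was lost in 7 of 17 alternatives, among them those without SFRP2 siRNA replicate 2 (-0.20), SFRP2 siRNA replicate 3 (-0.17) or RAB6A siRNA replicate 2 (-0.16). Corrected for GC content and length, Ninj1 turned to -0.11 and Ripk3 to -0.10, Casp1 was called lower (-0.22, limma adjusted p = 0.00459) and Casp4 was not called (-0.11, limma adjusted p = 0.278). Casp8 was at -0.31 there and remained called (limma adjusted p = 0.000952).

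**Figure D4:**
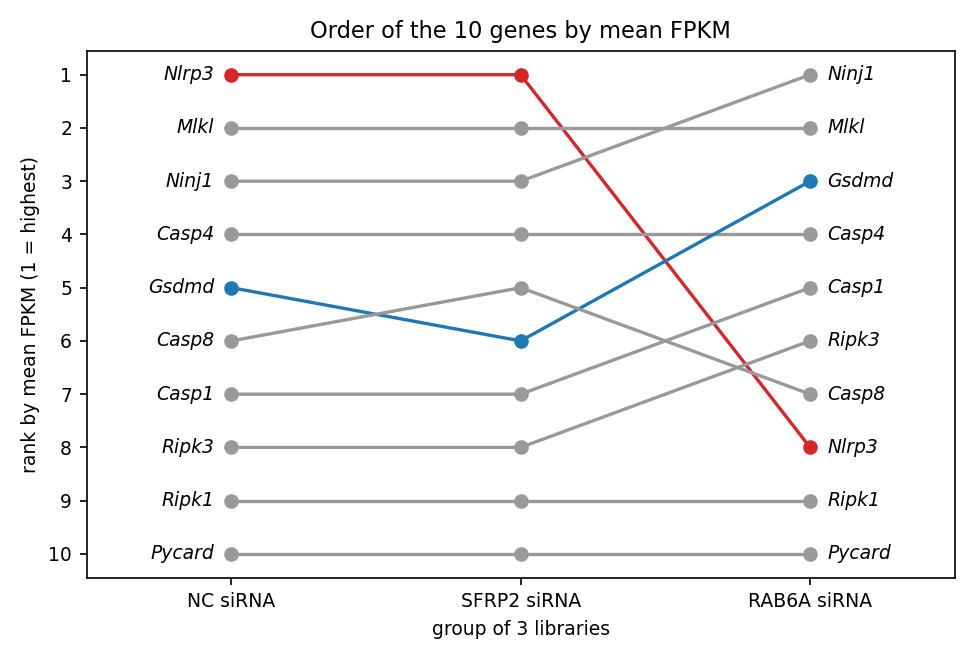
Rank of the 10 genes by mean FPKM (1 = highest) on the vertical axis in NC, SFRP2 siRNA and RAB6A siRNA on the horizontal axis, with 3 libraries in each group. Nlrp3 is in red, Gsdmd in blue and the others in gray. Nlrp3 went from rank 1 in NC and SFRP2 siRNA to rank 8 in RAB6A siRNA, and Gsdmd from ranks 5 and 6 to rank 3.

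As the plot of ranks shows, the order of levels in SFRP2 siRNA was that of NC except that Casp8 and Gsdmd changed places. The ranges of this pair overlapped, as did those of Nlrp3 and Mlkl and those of Gsdmd and Casp1. In RAB6A siRNA, Ninj1 and Mlkl came first with overlapping ranges, followed by Gsdmd, Casp4, Casp1, Ripk3, Casp8, Nlrp3, Ripk1 and Pycard. No other neighbors overlapped there. Within a library, Nlrp3 was 2.71 to 3.07 times Casp1 in NC, 2.54 to 3.13 times in SFRP2 siRNA and 0.318 to 0.392 times in RAB6A siRNA. Gsdmd was 1.21 to 1.35 times Casp1 in NC, 1.04 to 1.07 times in SFRP2 siRNA and 1.69 to 2.03 times in RAB6A siRNA. The sensor was thus above its effectors in NC and SFRP2 siRNA and below them in RAB6A siRNA.

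Other genes of these pathways were read from 5 lists with 80 genes, of which 77 were in the table. In SFRP2 siRNA against NC, none of 66 tested was called by limma, beside 0% of all genes, and 10 had an unadjusted p under 0.05, beside 18.5% of all genes. The smallest unadjusted p in 4 of the lists belonged to Brcc3, a deubiquitinase of NLRP3 (log2 fold change 0.11), Il1b (-0.16), the double-stranded RNA receptor Tlr3 (0.25) and Chmp6 (-0.29), a subunit of the ESCRT-III machinery that repairs membranes. Their limma adjusted p ranged from 0.165 for Tlr3 to 0.421 for Brcc3.

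In RAB6A siRNA against NC, 29 of 67 list genes were called higher and 21 lower, 74.6% together, beside the 74.1% of all genes. Of 10 other inflammasome sensors and cofactors tested, 4 rose and 4 fell. Of these calls, that of Brcc3 (0.26) was lost with median-of-ratios scaling (0.22) and quantile normalization (0.17) and its sign turned after GC and length correction (-0.06), which also ended the call of the ATP receptor gene P2rx7 (from -0.31 to -0.12, limma adjusted p = 0.329). Txnip, which binds NLRP3, rose from 47.7 ± 2.36 to 128 ± 18.0 FPKM (SD, n = 3; log2 fold change 1.41), the flagellin receptor gene Naip5 rose by 1.03 on the log2 scale, and the DNA sensor Aim2 rose from 41.4 ± 4.05 to 79.1 ± 5.84 FPKM (log2 fold change 0.93). The sensor Nlrp1b (-1.16), Naip2 (-1.03) and Nek7 (-0.31), a kinase that licenses NLRP3, fell. Naip genes are closely related copies, and the split of reads between them is uncertain.

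Among interleukin-1 family genes, 2 rose and 4 fell of 7 tested, beside 37.6% higher and 36.5% lower among all genes. Il1rn, the receptor antagonist, fell from 633 ± 12.2 to 335 ± 22.5 FPKM (log2 fold change -0.92), while the cytokine gene Il1a fell from 8.11 ± 1.32 to 3.09 ± 0.437 FPKM (-1.36) and the receptor chain Il1rap had a log2 fold change of -0.93. Il18bp, the IL-18 decoy receptor, rose by 0.55 on the log2 scale. Il1b was at 15 ± 0.59 FPKM in NC and 17.4 ± 1.15 FPKM in RAB6A siRNA (log2 fold change 0.21, limma adjusted p = 0.0234), but was not called with median-of-ratios scaling (adjusted p = 0.0677) or after GC and length correction (adjusted p = 0.0597). Within a library, Il1rn was 40.4 to 44.3 times Il1b in NC, 44.1 to 51.0 times in SFRP2 siRNA and 16.8 to 22.0 times in RAB6A siRNA.

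Of 6 other gasdermins and caspases tested, 3 rose and 1 fell, beside 37.6% higher and 36.5% lower among all genes. Gsdme, another pore-forming gasdermin, rose from 0.389 ± 0.0113 to 1.79 ± 0.17 FPKM (log2 fold change 1.95), Casp6 had a log2 fold change of 1.31, and the apoptosome caspase Casp9 fell (-1). In NC, Gsdme was under the 0.5 FPKM required for the fit, which it entered only through the RAB6A siRNA libraries. Its direction among the 3 that rose was thus fixed by the filter. Gsdme remained far below Gsdmd, at 43.0 ± 3.14 FPKM in the same libraries.

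Of 30 death receptor and RIPK1 complex genes, 14 rose and 9 fell, beside 37.6% higher and 36.5% lower among all genes. The share called was thus near that of all genes. Tlr3, which can start necroptosis through RIPK3, fell from 9.71 ± 0.167 to 1.62 ± 0.30 FPKM (log2 fold change -2.52), and Fadd, the adaptor that brings caspase-8 to death receptors, fell from 1.82 ± 0.264 to 0.431 ± 0.141 FPKM (-1.88). Tnfaip3, the ubiquitin-editing enzyme A20, had a log2 fold change of -1. The RIPK1 ubiquitin ligase Birc2 (1.01), the death receptor Tnfrsf10b (0.88) and the kinase Map3k7 (0.75) rose. Ripk1 and Tlr3 fell in the same libraries in which Ripk3 was not called.

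Of 14 ESCRT genes tested, 6 rose and 3 fell, beside 37.6% higher and 36.5% lower among all genes. Chmp1b (1.55), Chmp2a (0.86) and Chmp4b (0.66) were higher, and Chmp6 (-0.94) and Vps4b (-0.41) were lower. Tsg101 was called lower as well (-0.21, limma adjusted p = 0.0195), but not with quantile normalization (-0.05) or after GC and length correction (-0.08).

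**Figure D5:**
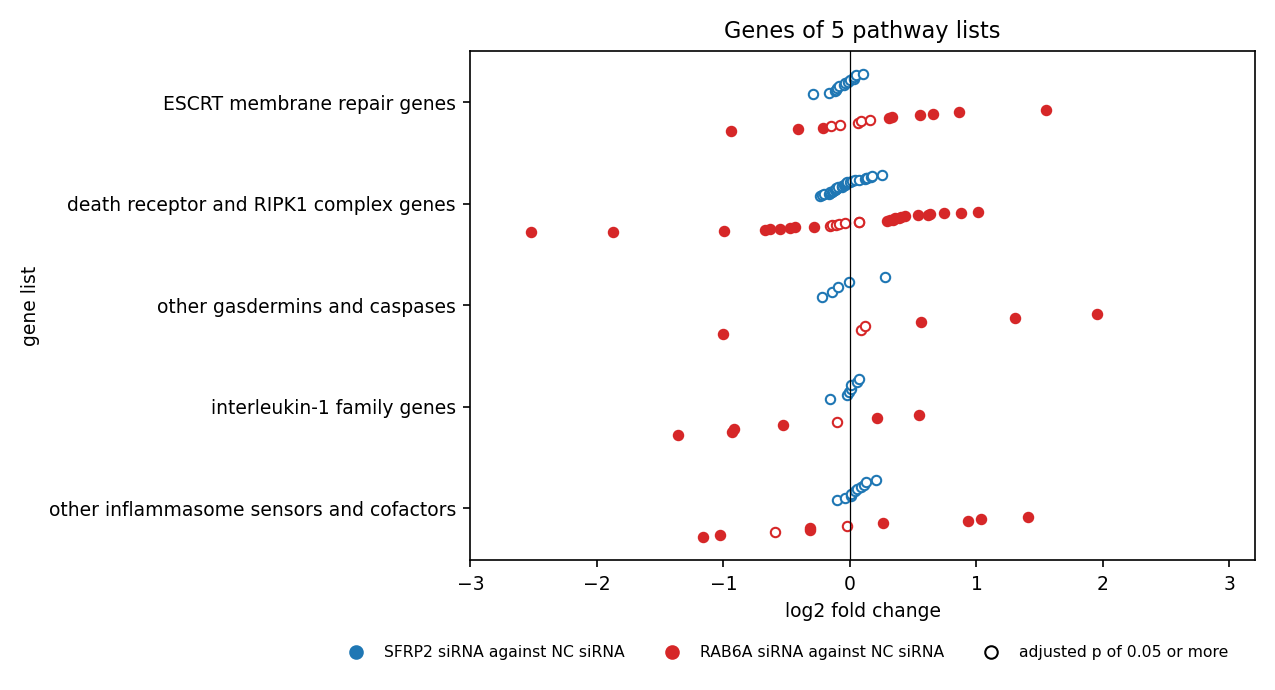
Log2 fold changes on the horizontal axis for the tested genes of the 5 pathway lists, in blue for SFRP2 siRNA against NC and in red for RAB6A siRNA against NC. Each point is a gene and open points had a limma adjusted p of 0.05 or more. No blue point was called, and the red points spread to both sides in every list.

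The plot of the pathway lists shows calls in both directions in each list for RAB6A siRNA, with Tlr3 at the far left (-2.52) and Gsdme at the far right (1.95). Gsdme could enter this fit only by being higher in RAB6A siRNA. Nlrp3, at -3.02, lay beyond all of these genes.

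Markers of macrophages and of the LPS response were read in the same libraries. Of the 10 macrophage markers, 5 fell and 1 rose in RAB6A siRNA against NC, beside 74.1% of all genes called, and their summed level was 4794 to 5256 FPKM in NC, 4269 to 4596 FPKM in SFRP2 siRNA and 4064 to 4238 FPKM in RAB6A siRNA. None of the 10 was at 0. The myeloid genes Lyz2 (log2 fold change -2.03), Csf1r (-1.44), Mpeg1 (-1.22) Spi1 (-1.05), the gene of PU.1, and Fcgr1 (-0.75) fell. Ptprc was called higher (0.17), but not with median-of-ratios scaling (0.12) or after GC and length correction (0.06). Cd14 (0.21), Itgam (0.09), Adgre1 (0) and Cd68 (-0.14) were not called. Of 7 LPS response markers measured, 2 rose and 4 fell, beside 37.6% higher and 36.5% lower among all genes. Their sum was 4611 to 4903 FPKM in NC and 2666 to 2786 FPKM in RAB6A siRNA. Acod1, the itaconate enzyme, had a log2 fold change of -1.98, Il6 of -0.94, Cxcl2 of -0.72 and Tnf of -0.67. The prostaglandin synthase gene Ptgs2 rose by 0.68 on the log2 scale (limma adjusted p = 0.000424), a call lost with quantile normalization (0.22). The other that rose was Il1b (0.21), whose call was lost with median-of-ratios scaling and with GC and length correction. Nos2 was not called (0.20), and it was called lower with quantile normalization (-0.41) and higher after GC and length correction (0.30). Of 3 fibroblast markers tested, Col1a2 (0.31 ± 0.0815 FPKM in NC and 0.825 ± 0.184 FPKM in RAB6A siRNA) and Dcn (0.348 ± 0.0716 and 0.701 ± 0.218 FPKM) were called higher, and Col1a1 (0.644 ± 0.424 and 0.542 ± 0.105 FPKM) was not called. Of all genes tested, 37.6% were called higher. Col1a2 and Dcn were under 0.5 FPKM in NC and entered the fit only through the RAB6A siRNA libraries. Their direction was thus fixed by the filter. The call of Col1a2 was lost with quantile normalization (log2 fold change from 1.17 to 0.54), and that of Dcn (0.81) was lost with quantile normalization (0.14), median-of-ratios scaling (0.77) and GC and length correction (0.70). The part of these changes in the levels of Nlrp3 and Ripk1 was not tested, and in bulk libraries fewer cells of a type and less RNA per cell cannot be told apart.

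The gene whose mean-centred profile over the 9 libraries was nearest to that of Nlrp3 was the RNA helicase gene Ddx3x, at a root mean square distance of 0.0555 on the log2 scale among 12548 genes, and 30 genes lay within 0.2. For Ripk1 it was the nuclear pore gene Nup85, at 0.055, with 329 genes within 0.2. For Gsdmd it was the ribosomal protein gene Rpsa, at 0.0363, with 1708 genes within 0.2. For the remaining 6 genes, the nearest profiles were those of Cpne3 for Casp1, Ddx24 for Casp4, Drg1 for Casp8, Lonp1 for Ripk3, Cat for Mlkl and Acot7 for Ninj1, with 2038 to 3092 genes within 0.2. The profile of Nlrp3 was thus the one with the fewest close neighbors of the 9. The profiles were not scaled for the size of the change. A low count therefore largely follows from a large difference between groups and is no separate property of Nlrp3.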

How the data were processed

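RNA was sequenced from RAW264.7 cells in 9 libraries, 3 in each group. Per the labels, libraries were paired-end and HISAT2, featureCounts and Subread were used, with no versions. The genome build and annotation are not given in the sources used here. Values were deposited by the authors as FPKM, and the main fit therefore used FPKM. A fit of recovered reads (voom) was run only as an alternative. Groups were taken from the labels. No column of other samples was used.

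Of 28137 identifiers, 27533 were named from GENCODE M21 (GRCm38). FPKM multiplied by exon length was a whole number of steps within 0.03 read in all 9 libraries for 27074 genes (98.3% of those named). These reads were used for depth, reads of single genes and the voom alternative, and their number sets the precision of low genes. Casp1 was not whole.

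Each pair of groups was fitted with limma 3.58.1 in R 4.3.3 (eBayes with trend) on log2(FPKM + 0.1), for genes with a mean of at least 0.5 FPKM over the 6 libraries, with Benjamini-Hochberg adjustment over all genes tested. Fold changes are on that scale and understate changes of low genes. Called means an adjusted p under 0.05, and a DEG has in addition an absolute log2 fold change over 1. Single levels were compared with exact two-sided permutation tests in Python 3.11.15. In simulated data with independent noise, a log2 fold change of 1 was given to a small set of genes that were not low. Of that set, limma called 94% for SFRP2 siRNA against NC and 89.9% for RAB6A siRNA against NC. These fits held 12051 and 12041 genes. Smaller changes were not simulated. The data also differ from this setting, with 74.1% of all genes called for RAB6A siRNA and a GC trend for SFRP2 siRNA. The shares may therefore not hold for them. Promoter windows are from RefSeq.

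The 10 genes and all lists were chosen with earlier results of these data known. From each list, the 3 largest fold changes in each direction among called genes were named, or the smallest unadjusted p where none was called, and 1 gene that this rule names is not reported here. Single markers, and Brcc3 and P2rx7 in RAB6A siRNA against NC, were named after their values were seen. Alternatives were pseudocounts of 1 and 0.01, no filter or a mean of 1 FPKM, median-of-ratios scaling, quantile normalization, a fit with a term for replicate number, 1 fit over the 9 libraries, correction for GC content and length by splines with 5 degrees of freedom, that correction with the replicate term, voom, and each library left out in turn.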

Additional observations from a re-analysis of the deposited data

How the results depend on the processing

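Every comparison was refitted under 17 alternatives, of which voom could not be fitted for Casp1. Pycard entered the fit only where no filter was applied, so that the other alternatives tested at most 9 of the 10 genes. The number of the 10 genes called for RAB6A siRNA against NC was 5 to 8 (6 to 7 with a library left out), and 6 to 7 against SFRP2 siRNA (6 to 7). List genes called were 49 to 56 (47 to 51) and 50 to 56 (46 to 51). For SFRP2 siRNA against NC it was 0 in each alternative for both. Among all genes, RAB6A siRNA against NC had 9418 of 12712 called in the main fit. With no filter on low values, 10934 of 27077 were called, and with voom 9364 of 12298. Against SFRP2 siRNA, these were 9369 of 12764, 10684 of 26854 and 9360 of 12336. Nlrp3, Ripk1, Casp8 and Gsdmd kept their direction and call in all alternatives against NC and against SFRP2 siRNA, with Nlrp3 at -3.11 to -2.83 and Ripk1 at -2.04 to -1.67 against NC.

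Some signs turned. For RAB6A siRNA against NC, Casp1 was at -0.04 with median-of-ratios scaling, -0.26 with GC and length correction, -0.03 without NC replicate 3, -0.01 without RAB6A siRNA replicate 1 and 0 without RAB6A siRNA replicate 3 (-0.03 to 0.02 with each library left out), Ripk3 at 0.08 with quantile normalization and 0.03 with voom, and Ninj1 at -0.18 with GC and length correction. Against SFRP2 siRNA, Casp1 was at 0.03 with quantile normalization, and with GC and length correction Ripk3 was at -0.10 and Ninj1 at -0.11. For SFRP2 siRNA against NC, Casp1 was at -0.03 with that correction, Ripk1 at 0.01 without NC replicate 2 (-0.06 to 0.01 with each library left out) and Nlrp3 at -0.01 without SFRP2 siRNA replicate 3 (-0.01 to 0.04). With the replicate block added to the correction, these corrected values were the same. The cause was not tested. Pycard, with 0 to 30 reads a library, was compared by exact permutation, apart from the fit with no filter. Small differences of it were not detectable at this depth.

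The labels number the libraries of each group alike, but same-numbered libraries did not deviate together (correlations of -0.0847 to 0.0477, and -0.116 to 0.0815 for different numbers). These values gave no ground for pairing by number, but with 3 libraries a group they cannot exclude a shared culture or batch. With the replicate block, 7 of the 9 genes tested were called for RAB6A siRNA against NC, 7 against SFRP2 siRNA and 0 for SFRP2 siRNA against NC. Calls among all genes went from 9418 to 9103 of 12712 for RAB6A siRNA against NC. Against SFRP2 siRNA they went from 9369 to 9159 of 12764, and for SFRP2 siRNA against NC they stayed at 0. In that last comparison, genes with an unadjusted limma p under 0.05 went from 2220 to 2988 of 12017.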
